A study of Mus musculus with 40 samples.

Results

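Adding splenic T cells to 4T1 carcinoma cells on uncoated tissue culture polystyrene was followed in 9 of the 40 libraries of the series. Libraries were chosen by their labels alone, as those on the uncoated substrate: 4 co-cultures, from experiments 1, 2, 4 and 5, and 5 cultures of 4T1 alone, from experiments 1 to 5. Each co-culture was set against 4T1 alone of the same experiment, and 4T1 alone of experiment 3 had no partner. 4T1 is a mammary carcinoma line of BALB/c origin, and the T cells came from C57Bl6 spleens, so the lymphocytes and the carcinoma cells differ in strain. The carcinoma cells were plated at 10000 per cm2 and the T cells were added after overnight culture at 80000 per cm2. Interleukin 2 at 30 U/mL went into both arms, and the arms then stayed in culture for 24 h. Cells that floated free were pelleted and combined with the trypsinised cells, so a co-culture library is a mixture of carcinoma and T cell RNA in unknown proportion. In such bulk RNA, a lower level cannot be told apart between fewer cells of a type and less RNA per cell. How the T cells were isolated, and whether they were activated before plating, is not given in the sources used here.

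A T cell recognises peptide held by major histocompatibility complex (MHC) molecules through its receptor, whose CD3 chains pass the signal to the kinases Lck and Zap70. Activated T cells and natural killer cells secrete interferon gamma, which acts through its receptor, Jak1 and Jak2 and raises guanylate-binding proteins, immunity-related GTPases, antigen-presentation genes and the chemokine Cxcl9 in many cell types, tumour cells and T cells included. Lymphocytes express many interferon-inducible genes themselves.

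The 9 libraries held 20.52 to 40.11 M (mega) assigned reads, recovered from the deposited values, which are reads per M of scaled library size ("per M" below). Where a library has no read of a gene, its true level can still reach the equivalent of 3 reads, here 0.076 to 0.144 per M by counting error alone. The labels call the replicates biological, and each is a separate experiment. The summed level of 9 epithelial markers of the carcinoma cells was 2300 to 2911 per M in 4T1 alone and 2682, 2609, 1757 and 2193 per M in the co-cultures of experiments 1, 2, 4 and 5. The labels also carry a library tag of unstated meaning, which matched between the arms of experiments 1, 2 and 5 and differed in experiment 4 (R3 for 4T1 alone, R2 for the co-culture), so that tag and arm cannot be told apart there.

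The co-cultures carried a leukocyte transcriptome whose amount differed widely between experiments. The summed level of 11 T cell markers was 2.55 to 4.2 per M in 4T1 alone, and 102.8, 21.4, 506.4 and 10.8 per M in the co-cultures of experiments 1, 2, 4 and 5. All 4 co-cultures lay above all 5 libraries of 4T1 alone. The co-culture of experiment 4 was the highest and that of experiment 5 the lowest. The amount of T cell RNA recovered from wells seeded alike therefore spanned a wide range.

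Co-culture was compared with 4T1 alone over 14702 genes by limma on log2(value + 0.1), with the experiment as a block. No gene passed an adjusted p of 0.05 (0 genes, 0% of those tested), and the smallest adjusted p was 0.126. Unadjusted, 3284 genes (22.3%) had p under 0.05, of which 1664 were higher and 1620 lower in co-culture. The count test edgeR, run with the same block on the recovered reads, called 267 genes (1.82%): 264 higher (1.8%) and 3 lower (0.0204%). Without the block edgeR called 0 genes (2347 at an unadjusted p under 0.05) and limma called 32, all higher. DESeq2 with the block called 529, 334 of them higher. Fitted to all 40 libraries with the block, limma called 955 of 14701 genes for the same contrast, 424 higher and 531 lower. The fit of all 40 libraries counts several wells of an experiment as separate, so its p-values do not measure the spread over 4 independent experiments. It includes the same uncoated libraries, so its calls are no separate support for genes chosen from them. The planned test was limma, and edgeR was an alternative to it. Below, a gene is said to pass when its edgeR adjusted p is under 0.05 in the fit with the block. Of the 267 such genes, DESeq2 also called 178. Only 93 were called in each of the 4 edgeR fits that left out experiment 1, 2, 4 or 5. Groups are said to be apart when all 4 co-cultures lie on 1 side of all 5 libraries of 4T1 alone. Groups were apart upward for 598 genes (4.07%) and downward for 220 (1.5%). Leaving out experiment 4, the library richest in T cell RNA, gave 204 edgeR calls and 739 genes apart upward, and limma then called 78 genes, 77 of them higher. Leaving out experiment 1 gave 110 edgeR calls. Without experiment 1, 2, 4 or 5, edgeR called 0, 0, 9 and 0 genes as lower, so no lower call of edgeR was shared by these fits.

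The genes that passed upward were mostly silent in the carcinoma cells. Of the 264, 223 averaged under 0.1 per M in 4T1 alone, 38 averaged 0.1 to 10 per M, and 3 averaged 10 per M or more. The median level of the 264 in 4T1 alone was 0.0147 per M. Their median log2 difference was 4.48 in experiment 1, 2.15 in experiment 2, 6.87 in experiment 4 and 1.67 in experiment 5. The difference was largest in experiment 4 for 263 of them. The order of experiments 4, 1, 2 and 5, which is that of the summed T cell markers, was followed by 202. Of the 11 summed markers, 9 are among the 264, and these orders were not counted over all tested genes. The shared order therefore supports nothing by itself. A gene this low in 4T1 alone reached the filter for testing through libraries in which it is higher, so the level of these genes in 4T1 alone supports nothing by itself.

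**Figure D1:**
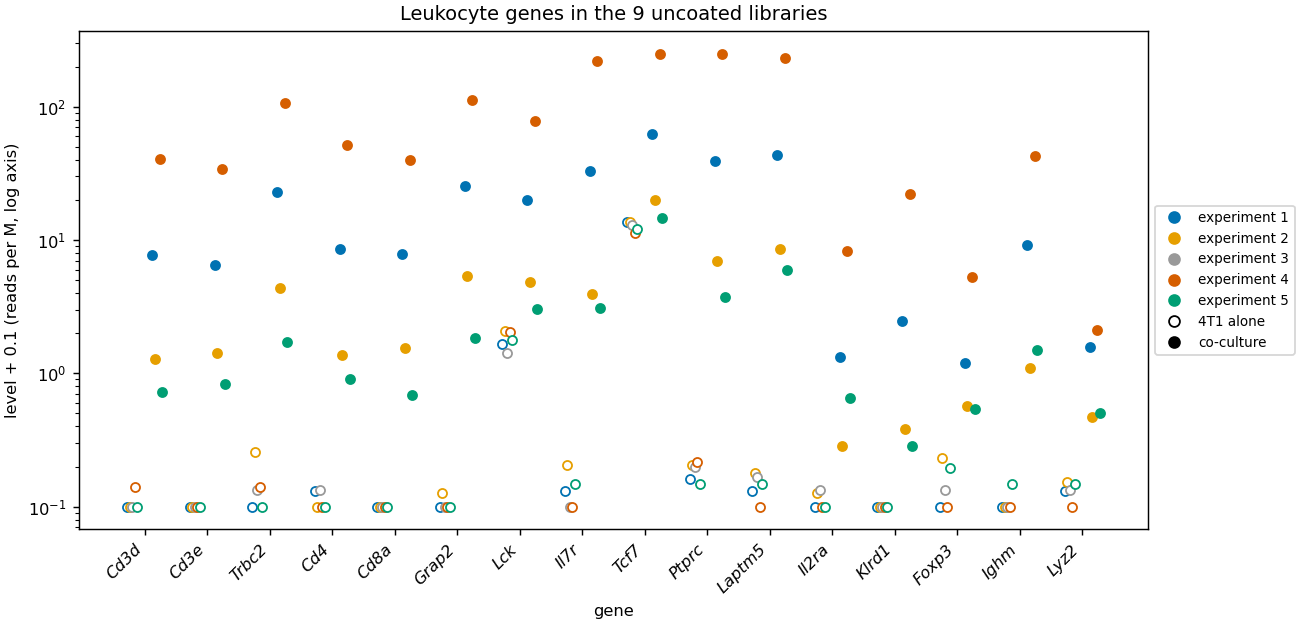
Level plus 0.1, in reads per M on a log axis, of 16 leukocyte genes in each of the 9 libraries. Open circles are 4T1 alone, filled circles are co-cultures, and colours mark experiments; for 14 of the genes 4T1 alone lies near 0, for Lck and Tcf7 it does not, and the co-culture of experiment 4 is the highest for each gene.

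Genes of the T cell receptor complex and its coreceptors were higher in co-culture. Of the 15 members tested, 14 passed upward, 14 had groups apart and 15 were higher in 4 of 4 pairs, with a median log2 difference of 5.25 against 0 over all genes tested. At a pseudocount of 1 the median was 2.5. Cd3d, a signalling chain of the receptor (chromosome 9, 44981786 to 44987339 in GRCm38), had 0, 0, 0, 0.0395 and 0 per M in 4T1 alone of experiments 1 to 5. Its co-cultures had 7.63, 1.18, 40.4 and 0.626 per M in experiments 1, 2, 4 and 5, a log2 difference of 5.25 ± 0.86 (SE; limma adjusted p = 0.138; edgeR adjusted p = 3.36e-05). The groups did not overlap, and the 5 libraries of 4T1 alone held a single read of this gene. Cd3e, another CD3 chain, was at 0 in all 5 libraries of 4T1 alone and at 6.39, 1.31, 33.9 and 0.737 per M in co-culture (edgeR adjusted p = 0.000919).

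Both coreceptors were present. Cd4, which binds MHC class II, had 8.46, 1.28, 51.9 and 0.810 per M in the co-cultures of experiments 1, 2, 4 and 5 and at most 0.0332 per M in 4T1 alone (edgeR adjusted p = 5.26e-05). Cd8a, a chain of the MHC class I coreceptor, had 7.80, 1.46, 40 and 0.589 per M and was at 0 in each library of 4T1 alone. In each co-culture Cd4 and Cd8a lay close to each other on this per-read scale, which is not corrected for length. Trac was the member that did not pass. This constant region of the receptor alpha chain had 0.970, 1.76, 1.19, 1.34 and 1.15 per M in 4T1 alone and 9.05, 2.93, 43.4 and 1.47 per M in co-culture (edgeR adjusted p = 0.148), and its co-culture of experiment 5 lay within the range of 4T1 alone.

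Of the 15 genes of receptor signalling, 11 passed upward and 15 had groups apart, with a median log2 difference of 4.01. Grap2, an adaptor that couples the receptor to Lcp2, had 1 read in all 5 libraries of 4T1 alone together. It had 25.4, 5.30, 112.3 and 1.73 per M in co-culture, a log2 difference of 6.94 ± 0.88 (edgeR adjusted p = 3.36e-05). Some members were not silent in 4T1 alone. Lck, the kinase that starts receptor signalling, had 1.33 to 1.99 per M there and 19.7, 4.77, 78.3 and 2.95 per M in co-culture, with the groups apart (edgeR adjusted p = 0.108). Fyb, an adaptor of T cell adhesion, had 5.29 to 6.48 per M in 4T1 alone and 18.7, 7.88, 68.2 and 6.82 per M in co-culture (edgeR adjusted p = 0.182).

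Genes of naive and memory T cell homing were among the highest leukocyte transcripts. Of 15 members tested, 4 passed upward and 11 had groups apart, with a median log2 difference of 2.39 (1.5 without experiment 4), and 3 averaged 10 per M or more in 4T1 alone. Il7r, the receptor of the survival cytokine interleukin 7, had at most 0.104 per M in 4T1 alone and 32.7, 3.86, 218.2 and 2.98 per M in co-culture (edgeR adjusted p = 0.000197). Ccr7, a chemokine receptor for lymph node entry, had at most 0.207 per M and then 13, 2.21, 50.4 and 0.884 per M, and also passed. Tcf7, a transcription factor of naive and memory T cells, was expressed by 4T1 alone at 11.2 to 13.6 per M and stood at 62.1, 20.0, 248.7 and 14.6 per M in co-culture, with the groups apart (edgeR adjusted p = 0.179). Cd44, an adhesion receptor that carcinoma cells also carry, had 312.4 to 389.0 per M in 4T1 alone and 376.0, 391.8, 323.4 and 350.4 per M in co-culture, within or next to the same range (log2 difference 0.05 ± 0.05).

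Genes of the interleukin 2 receptor and of T cell activation were detected at lower levels. Of 18 members tested, 3 passed upward and 4 had groups apart, with a median log2 difference of 1.33 (0.65 without experiment 4, 0.68 with quantile normalisation and 0.50 at a pseudocount of 1). Il2ra, the alpha chain that makes the interleukin 2 receptor high-affinity, had at most 0.0332 per M in 4T1 alone and 1.22, 0.187, 8.13 and 0.553 per M in co-culture (edgeR adjusted p = 0.0043). Il2rb, its beta chain, had 0.0606 to 0.336 per M in 4T1 alone and 7.60, 1.84, 29.1 and 1.51 per M in co-culture (edgeR adjusted p = 0.00622). The costimulatory receptor gene Icos had 1.60, 0.187, 10.2 and 0.184 per M in co-culture and also passed. Cd69, an early activation antigen, was at 0 in 4T1 alone and at 0.304, 0.280, 1.34 and 0 per M in co-culture, and did not pass (edgeR adjusted p = 0.125).

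Set against the T cell markers of the same library, these genes did not keep 1 ratio. Cd3e made up 6.21%, 6.10%, 6.69% and 6.85% of the summed T cell markers in the co-cultures of experiments 1, 2, 4 and 5. For Il2ra, which is not one of the summed markers, the corresponding level was 1.18%, 0.872%, 1.61% and 5.14% of the sum. Foxp3, the defining transcription factor of regulatory T cells, was at 1.06%, 2.18%, 1.03% and 4.11%. Il7r was at 31.9%, 18.0%, 43.1% and 27.7%. These are single libraries with no test, and in experiments 2 and 5 the Il2ra and Foxp3 levels rest on few reads (0.187 to 0.553 per M, where 1 read is worth 0.0312 and 0.0368 per M). The marker sum also counts Lck and Trac, which 4T1 alone expresses. In experiments 2 and 5 the sum was 4.2 and 2.88 per M in 4T1 alone, against 21.4 and 10.8 per M in co-culture. No correction was made for this, so the shares in experiments 2 and 5 are the least certain.

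Cytotoxic effector genes were low. Of 11 members tested, 2 passed upward and 6 had groups apart, with a median log2 difference of 1.68 (0.80 without experiment 4, 0.47 with quantile normalisation and 0.46 at a pseudocount of 1). Klrd1, a receptor subunit of natural killer and memory CD8 T cells, was at 0 in 4T1 alone and at 2.38, 0.280, 21.9 and 0.184 per M in co-culture (edgeR adjusted p = 0.00288). Srgn, the proteoglycan of secretory granules, had at most 0.0332 per M in 4T1 alone and 4.18, 0.966, 23.4 and 0.553 per M in co-culture, and also passed. Gzmb, which encodes the protease granzyme B, was at 0 in 4T1 alone and at 0.0253, 0.125, 1.10 and 0.0737 per M in co-culture (edgeR adjusted p = 0.158). Prf1, the pore-forming perforin, was at 0 in 4T1 alone and at 0.431, 0, 1.89 and 0 per M in co-culture (edgeR adjusted p = 0.124). Ifng itself did not reach the filter for testing: it had 0, 0.0259, 0.0663, 0 and 0 per M in 4T1 alone and 0.0507, 0.0312, 0.174 and 0.0737 per M in co-culture. In 3 of the 4 co-cultures that is under the limit a count of 0 allows, so a difference in Ifng was not detectable at this depth.

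Checkpoint receptors and regulatory T cell genes had a median log2 difference of 2.45 (1.06 with quantile normalisation and 0.66 at a pseudocount of 1) over 11 members tested, of which 1 passed and 6 had groups apart. The member that passed was Btla, an inhibitory receptor of lymphocytes, at no more than 0.048 per M in 4T1 alone and 0.786, 0.249, 4.96 and 0.111 per M in co-culture (edgeR adjusted p = 0.0177). Foxp3 had 0 to 0.130 per M in 4T1 alone and 1.09, 0.467, 5.20 and 0.442 per M in co-culture, apart but not passing (edgeR adjusted p = 0.0932). Ctla4, an inhibitory receptor, had at most 0.104 per M in 4T1 alone and 0.912, 0.249, 7.17 and 0.258 per M in co-culture (edgeR adjusted p = 0.0607). Pdcd1, which encodes PD-1, was at 0 in 4T1 alone and at 0.405, 0.125, 3.40 and 0.184 per M in co-culture (edgeR adjusted p = 0.0582). With quantile normalisation the groups overlapped for Btla, Foxp3, Ctla4 and Pdcd1. In the limma fit of all 40 libraries with the block, Foxp3 was called (adjusted p = 0.0287) and Btla was not (adjusted p = 0.0663).

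Genes shared by many leukocytes were the strongest of the comparison. Of 24 members tested, 21 passed upward and 21 had groups apart, with a median log2 difference of 4.87. Laptm5, a lysosomal protein of haematopoietic cells, had 0 to 0.0777 per M in 4T1 alone and 43.6, 8.41, 231.7 and 5.86 per M in co-culture, a log2 difference of 7.62 ± 0.89 (limma adjusted p = 0.126; edgeR adjusted p = 6.05e-05). Ptprc, the CD45 phosphatase of leukocytes, had 0.048 to 0.118 per M in 4T1 alone and 39.1, 6.85, 247.6 and 3.61 per M in co-culture. Dock2 and Rac2, which drive actin remodelling in migrating lymphocytes, Cd53, a tetraspanin, and Selplg, the ligand of selectins, were each at or under 0.166 per M in 4T1 alone and at 1.22 to 116.1 per M in co-culture, and each passed. In the GIMAP family, small GTPases of lymphocytes, 6 of 8 passed upward and 7 had groups apart, with Gimap6 at 16.5, 3.77, 93.1 and 1.73 per M in co-culture. The noncoding RNA Xist, named after its values were seen, had at most 0.0303 per M in 4T1 alone and 10.8, 3.61, 90.7 and 0.810 per M in co-culture, and passed.

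Markers of other blood cells moved with the T cell markers in part. Ighm, the heavy chain of immunoglobulin M, had at most 0.048 per M in 4T1 alone and 9.12, 0.997, 42.7 and 1.4 per M in co-culture (edgeR adjusted p = 0.000146). The 10 B cell markers summed to 1.03 to 2.45 per M in 4T1 alone and to 10.5, 3.68, 50 and 3.06 per M in co-culture, 4 were tested, 1 passed and 2 had groups apart. Among the defining B cell markers, Ms4a1 had at most 0.174 and Pax5 at most 0.116 per M in any co-culture. The part of B cells in the results was not tested. Of the 6 natural killer cell markers 1 had values here, 0.0507, 0, 0.029 and 0 per M in co-culture, under the limit that a count of 0 allows.

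The 5 macrophage and monocyte markers with values summed to 10.4 to 15.0 per M in 4T1 alone and to 11.9, 15.1, 13 and 11.5 per M in co-culture, and Lyz2, or lysozyme, was the member that passed (at most 0.0518 per M, then 1.47, 0.374, 2.00 and 0.405 per M; edgeR adjusted p = 0.0221). Dendritic cell markers summed to 4.01 to 5.45 per M in 4T1 alone and 4.76 to 6.00 per M in co-culture, with 0 of 2 tested passing. Neutrophil markers summed to 0.0395 to 0.232 per M and 0.280 to 3.60 per M, with 0 of 1 tested passing. Red cell and platelet markers stood out in experiment 4, with a sum of 25.2 per M against 0.788 to 1.99 per M in the other 8 libraries. Hbb-bs, a beta globin, had 5.87 per M there, 0.152 per M in the co-culture of experiment 1 and 0 in the other 7 libraries. Fibroblast and endothelial markers summed to 6.53 to 9.64 per M in 4T1 alone and 9.98, 9.31, 31.5 and 10.8 per M in co-culture. The 1 of 3 tested that passed was Pecam1, which endothelium and leukocytes share (edgeR adjusted p = 0.00779).

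Interferon gamma response genes are set out with the promoters of 4 members, because the members moved together in part. Most members with a listed promoter, though not all, also held a match to an interferon element, as counted below. The sequences run 5′ to 3′ along the gene's strand, from 250 bases before to 50 bases after the RefSeq start, in build GRCm38.p6. Capitals mark matches to the gamma-activated site GAS (TTCNNNGAA, which reads the same on both strands) or to the interferon-stimulated response element ISRE (GAAANNGAAA, searched on both strands), where N is any base.
Gbp5 (chr3:142496684-142496983, plus strand): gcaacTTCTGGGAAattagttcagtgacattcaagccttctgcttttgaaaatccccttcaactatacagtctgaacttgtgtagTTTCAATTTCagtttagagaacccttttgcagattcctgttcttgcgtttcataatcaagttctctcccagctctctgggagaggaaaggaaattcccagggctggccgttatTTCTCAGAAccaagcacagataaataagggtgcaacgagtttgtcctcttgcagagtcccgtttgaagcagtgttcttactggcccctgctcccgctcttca
Igtp (chr11:58199306-58199605, plus strand): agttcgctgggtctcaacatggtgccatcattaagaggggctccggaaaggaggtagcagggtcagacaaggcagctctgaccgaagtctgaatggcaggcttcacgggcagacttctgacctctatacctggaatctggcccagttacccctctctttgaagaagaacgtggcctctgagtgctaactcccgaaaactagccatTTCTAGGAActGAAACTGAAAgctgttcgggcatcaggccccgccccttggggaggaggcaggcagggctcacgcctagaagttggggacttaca
Tgtp2 (chr11:49064163-49064462, minus strand): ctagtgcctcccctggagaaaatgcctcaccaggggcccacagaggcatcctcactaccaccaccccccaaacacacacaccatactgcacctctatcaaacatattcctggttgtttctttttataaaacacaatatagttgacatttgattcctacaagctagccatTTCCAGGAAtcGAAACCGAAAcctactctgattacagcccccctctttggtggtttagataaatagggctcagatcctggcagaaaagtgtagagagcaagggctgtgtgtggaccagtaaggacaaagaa
Cxcl9 (chr5:92328030-92328329, minus strand): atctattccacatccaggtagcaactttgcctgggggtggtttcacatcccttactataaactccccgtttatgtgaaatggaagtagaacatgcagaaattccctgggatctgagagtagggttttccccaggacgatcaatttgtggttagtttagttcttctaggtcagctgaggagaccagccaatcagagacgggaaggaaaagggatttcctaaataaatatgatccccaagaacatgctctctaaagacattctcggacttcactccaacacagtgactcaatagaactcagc

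Gbp5 held GAS matches at 245 to 237 and at 52 to 44 bases before the start, and an ISRE match at 165 to 156. In Igtp a GAS match at 45 to 37 and an ISRE match at 34 to 25 lay next to each other, and Tgtp2 had the same arrangement at 81 to 73 and 70 to 61. The Cxcl9 window held neither, and no other interferon element was searched for. Of the 12285 promoters of tested genes in the table, 6.81% held GAS, 3.23% held ISRE and 9.63% held either. A promoter was listed for 16 of the 22 tested members of the list. Either element was present for 4 of the 5 members with groups apart and for 9 of the 11 without, so the elements did not separate these. A match is a run of letters and not a measured binding site.

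Of the 22 members, 1 passed upward and 8 had groups apart, with a median log2 difference of 0.77 against 0 over all genes. The median was 0.70 in experiment 1, 0.32 in experiment 2, 1.91 in experiment 4 and 0.16 in experiment 5, and the fitted median was 0.42 without experiment 4. Cxcl9, a chemokine that draws activated T cells (chromosome 5, 92321347 to 92328079), was the member that passed. It had 0.0606, 0.104, 0.0332, 0.079 and 0.0959 per M in 4T1 alone, and 0.608, 0.498, 1.97 and 0.516 per M in co-culture, a log2 difference of 2.22 ± 0.58 (limma adjusted p = 0.165; edgeR adjusted p = 0.0295). The groups did not overlap. The co-culture levels of experiments 1, 2 and 5 lay close together, where the summed T cell markers were 102.8, 21.4 and 10.8 per M. With 4T1 alone at a few reads per library, the differences within these experiments are uncertain.

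Gbp4, a guanylate-binding protein (chromosome 5, 105115767 to 105139586), had 1.12, 3.60, 1.46, 3.36 and 2.49 per M in 4T1 alone. Its co-cultures had 5.98, 6.01, 37.1 and 5.67 per M, a log2 difference of 1.91 ± 0.40 (edgeR adjusted p = 0.0844). Here too the groups were apart, and experiments 1, 2 and 5 had nearly the same level in co-culture. Their levels in 4T1 alone were 1.12, 3.60 and 2.49 per M. The difference within experiments was therefore larger in experiment 1 than in experiments 2 and 5. The co-culture level of the immunity-related GTPase gene Igtp followed the amount of T cell RNA in part. Igtp had 1.39 to 2.59 per M in 4T1 alone and 6.74, 3.02, 31.5 and 3.87 per M in co-culture (edgeR adjusted p = 0.167).

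Gbp5, Gbp6, Iigp1, Tgtp1 and Tgtp2, further GTPases of the interferon response, also had groups apart, and their log2 differences were 1.65, 1.89, 2.47, 1.71 and 1.69. The groups of Gbp5, Gbp6 and Iigp1 overlapped with quantile normalisation, and those of Igtp and Iigp1 with scaling to the epithelial markers. Cxcl9, Gbp4, Tgtp1 and Tgtp2 stayed apart under both. Tgtp1 and Tgtp2 are near-identical copies, so how reads were shared between them is uncertain. Other members did not separate. Irf1, a transcription factor of the interferon response, had 50.5 to 82.9 per M in 4T1 alone and 55.9, 47.3, 89.9 and 76.8 per M in co-culture (log2 difference 0.01 ± 0.06). The chemokine gene Cxcl10 had 1.64 to 3.81 per M in 4T1 alone and 2.56, 3.99, 3.48 and 3.09 per M in co-culture (log2 difference 0.14 ± 0.16). Cd274, which encodes PD-L1, was higher in 4 of 4 pairs, at 1.36 to 2.46 per M in 4T1 alone and 2.81, 2.87, 7.49 and 2.43 per M in co-culture, without passing (edgeR adjusted p = 0.215). The share of these transcripts that came from T cells rather than carcinoma cells was not tested.

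**Figure D2:**
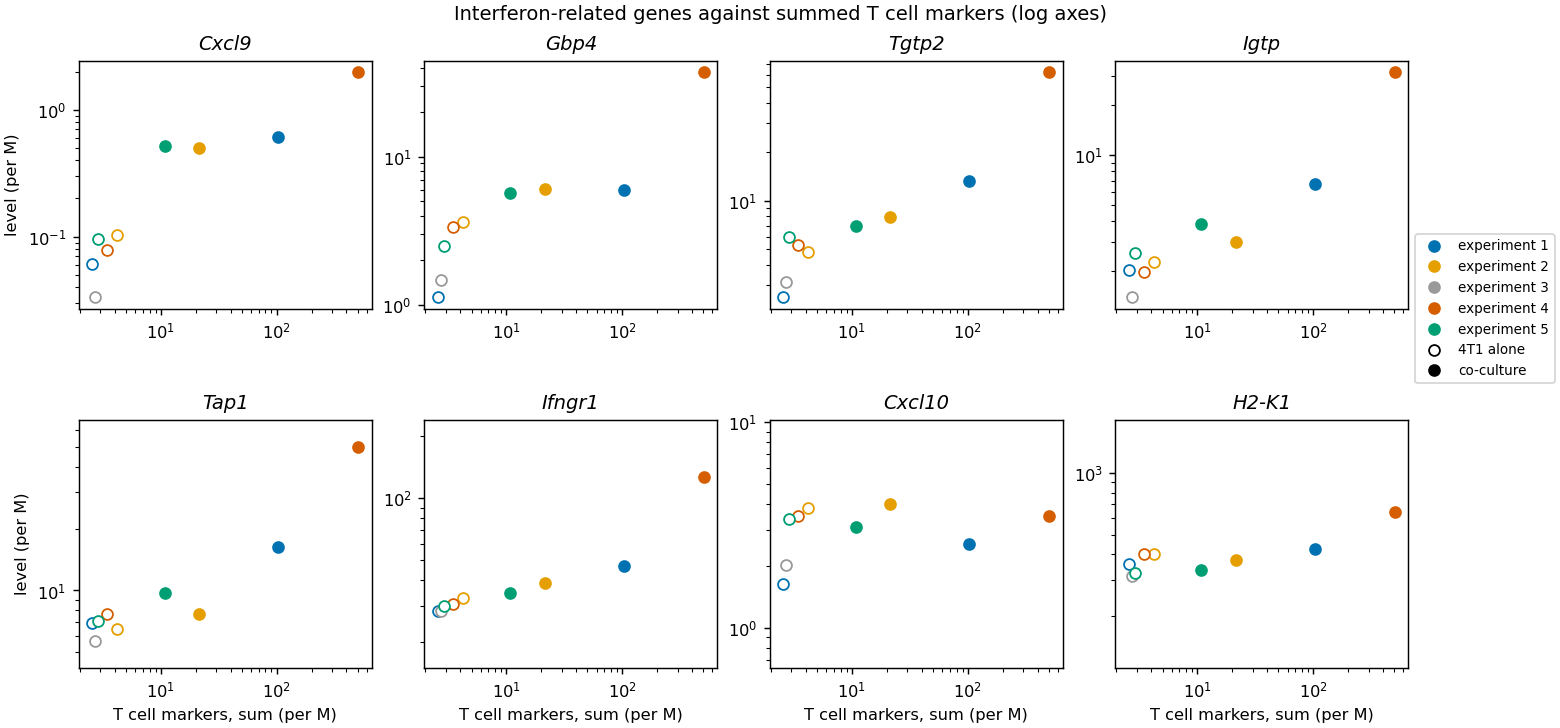
Level of 8 interferon-related genes against the summed level of 11 T cell markers, both in reads per M on log axes, in each of the 9 libraries (open circles 4T1 alone, filled circles co-cultures). Cxcl9 and Gbp4 are at nearly 1 level in the co-cultures of experiments 1, 2 and 5, but Gbp4 in 4T1 alone of those experiments is not. Ifngr1 is higher where the T cell markers are higher, and Cxcl10 overlaps between the arms.

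Upstream of these genes, 0 of 12 interferon receptor and JAK-STAT members passed and 2 had groups apart, with a median log2 difference of 0.21 (0.08 without experiment 4). Ifngr1, the ligand-binding chain of the interferon gamma receptor, had 28.3 to 32.6 per M in 4T1 alone and 47.0, 38.6, 127.1 and 34.8 per M in co-culture (log2 difference 0.81 ± 0.28; edgeR adjusted p = 0.177). Jak1, a kinase of interferon and common gamma chain cytokine receptors, had 151.7 to 163.2 per M in 4T1 alone and 205.3, 175.9, 362.7 and 164.0 per M in co-culture (log2 difference 0.43 ± 0.16). Both were apart between the groups, and their co-culture levels followed the order of the summed T cell markers.

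Of 21 MHC class I antigen presentation genes, 0 passed, 0 had groups apart, 3 were higher and 3 lower in 4 of 4 pairs, and the median log2 difference was 0.09. Over all tested genes, 15.0% were higher and 17.1% lower in 4 of 4 pairs. Tap1, a subunit of the peptide transporter, was higher in 4 of 4 pairs, with 5.70 to 7.70 per M in 4T1 alone and 16.2, 7.66, 49.7 and 9.76 per M in co-culture (log2 difference 1.14 ± 0.36; edgeR adjusted p = 0.159). Its co-culture of experiment 2 lay just inside the range of 4T1 alone. Tap2, the partner subunit, had 16.1 to 23.1 per M in 4T1 alone and 24.2, 22.2, 40.8 and 23.5 per M in co-culture. H2-K1, a classical class I heavy chain, had 312.7 to 402.4 per M in 4T1 alone and 425.9, 377.8, 646.9 and 334.6 per M in co-culture (log2 difference 0.22 ± 0.12). The heavy chains differ between BALB/c and C57Bl6 alleles and share long stretches, so their counts are uncertain. B2m, the light chain, had 229.3 to 330.6 per M in 4T1 alone and 286.2, 288.5, 456.8 and 289.6 per M in co-culture. Psmb10, a subunit of the immunoproteasome, was lower in 4 of 4 pairs, at 58.0 to 68.9 per M in 4T1 alone and 52.2, 63.4, 46.0 and 43.8 per M in co-culture (edgeR adjusted p = 0.153).

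Among 4 MHC class II genes tested, 1 passed: H2-Ob, a chain of the H2-O molecule of lymphocytes, at 0 in 4T1 alone and at 2.33, 0.156, 17.2 and 0.0737 per M in co-culture (edgeR adjusted p = 0.00409). The level in experiment 5 is under the limit that a count of 0 allows in that library, 0.111 per M, the groups overlapped with quantile normalisation, and the limma fit of all 40 libraries did not call H2-Ob (adjusted p = 0.058). Among 23 type I interferon response genes, 0 passed and 0 had groups apart, with a median log2 difference of 0.08, which was -0.17 with quantile normalisation and -0.03 without experiment 4.

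**Figure D3:**
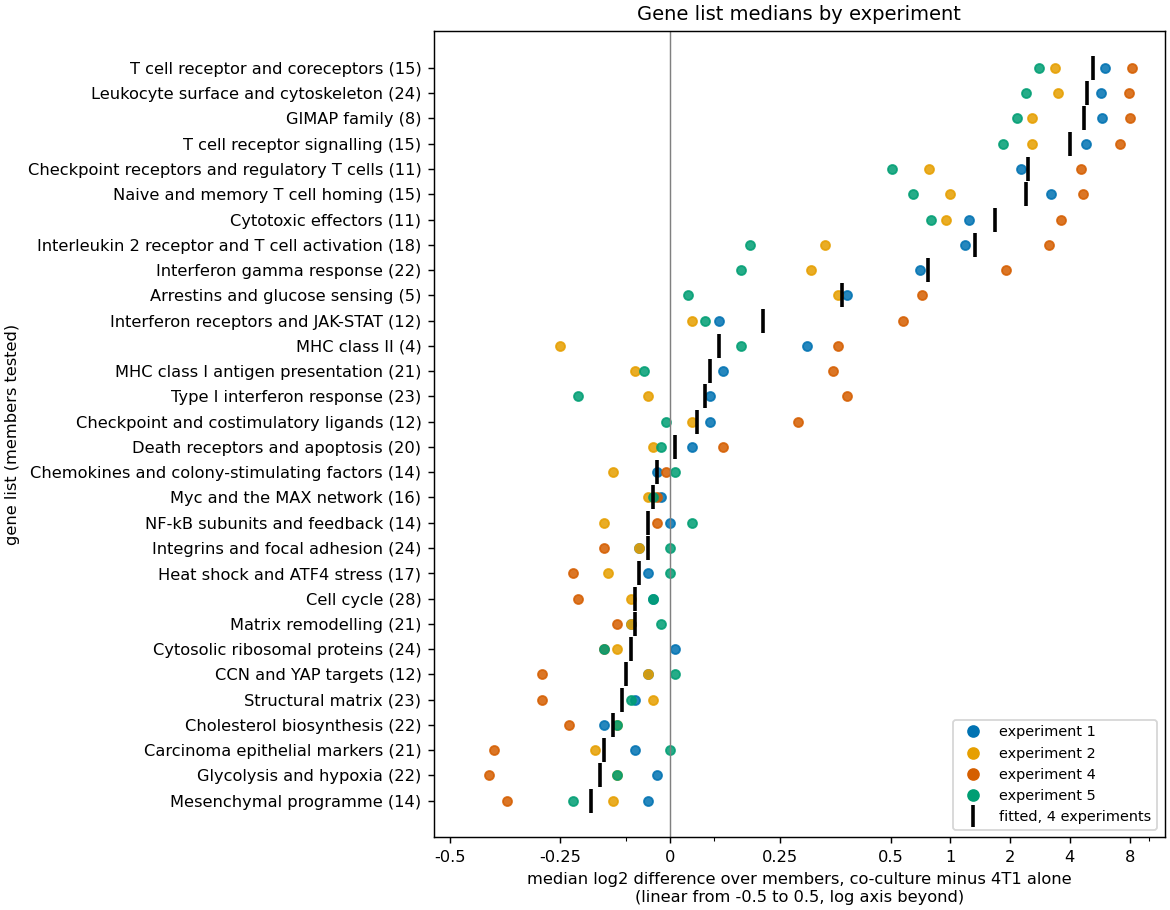
Median log2 difference, co-culture minus 4T1 alone, over the tested members of 30 gene lists (number of members in brackets), for each experiment (coloured circles) and as fitted over 4 experiments (black bars). The axis is linear from -0.5 to 0.5 and logarithmic beyond; the T cell receptor, receptor signalling, GIMAP and leukocyte lists lie furthest to the right in each experiment, and experiment 4 is the furthest to the right for each of these 4.

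Genes that the carcinoma cells express shifted far less. Among the 9545 genes at 10 per M or more in 4T1 alone, 3 passed upward and 2 downward, and groups were apart upward for 150 (1.57%) and downward for 182 (1.91%). The median log2 difference of these genes was -0.03. Genes above 0.5 on the log2 scale numbered 32, 98, 594 and 69 in experiments 1, 2, 4 and 5, and genes below -0.5 numbered 2, 20, 344 and 77. These counts depended on the scaling. With each library scaled to its carcinoma epithelial markers, the median of all tested genes moved from 0.002 to 0.171, groups were apart upward for 34 and downward for 0 of the expressed genes, and 8 of the 150 were among the 34. Directions below are relative to the authors' scaling.

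Genes chosen as those of smallest p among the expressed genes with groups apart upward had long transcripts. Ppp3ca, the catalytic subunit of the phosphatase calcineurin (chromosome 3, 136670124 to 136937727), had 62.5, 59.9, 53.5, 54.2 and 55.3 per M in 4T1 alone. In co-culture it had 72.2, 71.8, 76.0 and 69.9 per M, a log2 difference of 0.32 ± 0.06 (limma adjusted p = 0.163; edgeR adjusted p = 0.0427). With the authors' scaling the co-cultures lay in a narrow band above 4T1 alone. Of the edgeR fits that left out experiment 1, 2, 4 or 5, 0 called Ppp3ca. The difference within experiments 1, 2, 4 and 5 was 0.21, 0.26, 0.49 and 0.34, so it was not ordered by the summed T cell markers. Dmxl1, a regulator of the vacuolar proton pump, had 35.1 to 44.7 per M in 4T1 alone and 46.8, 51.2, 67.8 and 54.3 per M in co-culture, and passed (edgeR adjusted p = 0.0451). Only 1 of the edgeR fits that left out an experiment called Dmxl1. Btbd3, named because it was the third expressed gene to pass and after its values were seen, had 35.2 to 51.1 per M in 4T1 alone and 54.3, 50.8, 56.3 and 61.0 per M in co-culture (edgeR adjusted p = 0.0491), with the co-culture of experiment 2 inside the range of 4T1 alone. Kdm6a, a histone demethylase, had 17.3 to 19 per M in 4T1 alone and 22.9, 24.3, 36.6 and 23.5 per M in co-culture, with the groups apart (edgeR adjusted p = 0.0651). With scaling to the epithelial markers the groups of Ppp3ca, Dmxl1 and Kdm6a overlapped. The 7 other genes named by this rule, the MAX-binding factor Mga, the aminopeptidase Lnpep, Ubn2, Vps13b, Ints6, Dop1a and the ubiquitin ligase Cbl, had log2 differences of 0.28 to 0.60 and did not pass. In the limma fit of all 40 libraries with the block, Lnpep, Ubn2, Vps13b, Ints6 and Cbl of these 7 were called, at adjusted p of 0.0138 to 0.0492. These genes were chosen on uncoated libraries that the fit includes, so the calls are no separate support.

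Among the remaining pathway lists, Txnip, Cd47, Vsir and Mga had groups apart upward. Txnip, an inhibitor of thioredoxin and of glucose uptake, had 9.12 to 16.5 per M in 4T1 alone and 46.9, 22, 168.8 and 16.9 per M in co-culture (log2 difference 1.56 ± 0.50; edgeR adjusted p = 0.168). It was the 1 of 5 members with groups apart in the list of arrestins and glucose sensing, whose median was 0.39. Cd47, the "do not eat me" ligand of macrophage SIRPa, had 82.6 to 92.7 per M in 4T1 alone and 95.4, 101.6, 128.2 and 118.9 per M in co-culture (log2 difference 0.28 ± 0.08; edgeR adjusted p = 0.137). The groups of Cd47 overlapped with quantile normalisation and with scaling to the epithelial markers. Vsir, which encodes the checkpoint ligand VISTA, had 1.5 to 2.53 per M in 4T1 alone and 15.3, 4.21, 56.2 and 2.87 per M in co-culture (limma over all 40 libraries, adjusted p = 0.0477). Those were 2 of 12 members of checkpoint and costimulatory ligands, with 0 passing and a median of 0.06. In the Myc and MAX network 1 of 16 members, Mga, had groups apart, and the median was -0.04, or 0.13 with scaling to the epithelial markers.

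Cholesterol biosynthesis genes were lower in co-culture in 4 of 4 pairs for 12 of 22 members, where 17.1% of all tested genes were. Groups were apart downward for 3, against 1.5% of all tested genes, and 1 passed. Mvd, mevalonate diphosphate decarboxylase (chromosome 8, 122433601 to 122443422), had 15.3, 17.3, 14.8, 15.0 and 17.9 per M in 4T1 alone. In co-culture it had 11.9, 13.3, 10.8 and 12.5 per M, a log2 difference of -0.43 ± 0.07 (limma adjusted p = 0.126; edgeR adjusted p = 0.0307). The groups were apart, and the difference within experiments 1, 2, 4 and 5 was -0.37, -0.38, -0.47 and -0.52, so it was not ordered by the summed T cell markers. Pmvk and Mvk, the kinases of the steps before Mvd, had log2 differences of -0.29 ± 0.06 and -0.31 ± 0.09, with the groups apart and edgeR adjusted p of 0.0971 and 0.162. The limma fit of all 40 libraries with the block called 6 of the 22 lower, Mvd, Pmvk and Mvk among them. Over all 14701 genes it called 531 lower. Sqle, squalene epoxidase, had 117.3 to 128.3 per M in 4T1 alone and 107.3, 120.4, 84.0 and 117.0 per M in co-culture. The list's median was -0.13 with the authors' scaling and 0.04 with scaling to the epithelial markers, under which Mvd, Pmvk and Mvk were still lower on average but their groups overlapped.

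Glycolysis and hypoxia genes had groups apart downward for 5 of 22 members and were lower in 4 of 4 pairs for 12, with 0 passing. Over all tested genes the shares were 1.5% and 17.1%. The median of the list was -0.16, which was 0.00 with scaling to the epithelial markers and -0.08 without experiment 4. Pkm, pyruvate kinase, had 4234, 4151, 4115, 3799 and 3875 per M in 4T1 alone and 3793, 3481, 2600 and 3198 per M in co-culture (log2 difference -0.31 ± 0.07; edgeR adjusted p = 0.131). Gapdh had 1031 to 1111 per M in 4T1 alone and 999.8, 886.2, 735.3 and 864.0 per M in co-culture. Tpi1, Pgk1 and Eno1, glycolytic enzymes too, were the other 3 with groups apart, and their log2 differences were -0.28, -0.18 and -0.20. The limma fit of all 40 libraries with the block called 3 of the 22 lower, Pkm and Gapdh among them, beside 531 of all 14701 genes. The co-culture of experiment 4, which also had the lowest epithelial marker sum, was the lowest for each of the 5, and what the mixture with T cell RNA contributes was not tested.

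Epithelial genes had no group apart among 21 tested, but 8 were lower in 4 of 4 pairs, where 17.1% of all tested genes were. Their median was -0.15, or 0.01 with scaling to a subset of these genes. Krt14, a basal keratin, had 172.2, 238.7, 193.0, 117.5 and 106.5 per M in 4T1 alone and 146.2, 205.6, 78.4 and 71.1 per M in co-culture. The level differed more between experiments than between arms, and each pair was lower in co-culture (log2 difference -0.40 ± 0.08; edgeR adjusted p = 0.088; limma over all 40 libraries, adjusted p = 0.0111). Krt8, a luminal keratin, had 690.6 to 915.5 per M in 4T1 alone and 797.2, 769.2, 513.1 and 663.5 per M in co-culture. Cldn4, a tight junction claudin, had a log2 difference of -0.27 ± 0.08.

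Cell cycle genes had groups apart downward for 2 of 28, against 1.5% of all tested genes. Their median was -0.08, or 0.09 with scaling to the epithelial markers. The pair was Cdk4, the kinase of early G1, at 346.0 to 383.4 per M in 4T1 alone and 336.9, 288.6, 296.0 and 328.6 per M in co-culture, and Mcm7, a helicase subunit of replication, with a log2 difference of -0.21 ± 0.05. Of 20 death receptor and apoptosis genes, 1 had groups apart: Bcl2l1, an inhibitor of apoptosis, at 54.8 to 59.6 per M in 4T1 alone and 52.5, 50.3, 45.9 and 51.4 per M in co-culture. The limma fit of all 40 libraries called Cdk4, Mcm7 and Bcl2l1 lower (adjusted p = 0.0187, 0.0259 and 0.0406). Ribosomal protein genes were lower in 4 of 4 pairs for 10 of 24, where 17.1% of all tested genes were. Among them 0 had groups apart, and the median was -0.09, or 0.08 with scaling to the epithelial markers. That fit called 3 of the 24 ribosomal protein genes lower, beside 531 of all 14701 genes. In the remaining lists 0 members passed and 0 had groups apart: chemokines and colony-stimulating factors (14 tested, median -0.03), NF-kB (14, -0.05), structural matrix (23, -0.11), matrix remodelling (21, -0.08), integrins and focal adhesion (24, -0.05), CCN and YAP targets (12, -0.10), the mesenchymal programme (14, -0.18), and heat shock and ATF4 stress (17, -0.07). The fit of all 40 libraries called 1 of 23 structural matrix and 1 of 21 matrix remodelling genes lower. That is near its share over all genes, 531 of 14701. With scaling to the epithelial markers each of these 8 medians was above 0 except that of the mesenchymal programme, at -0.01.

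**Figure D4:**
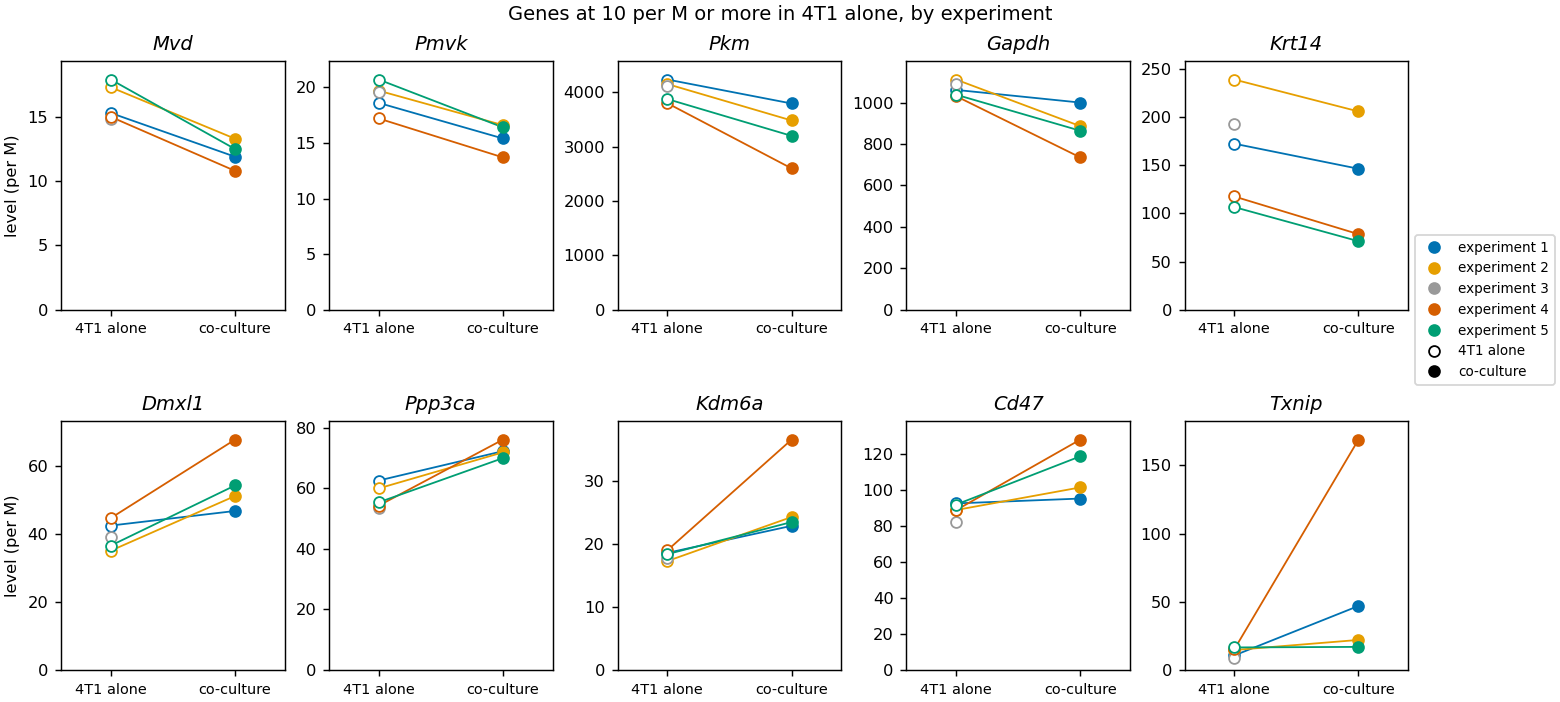
Level in reads per M, on axes from 0, of 10 genes that average 10 per M or more in 4T1 alone, with lines joining the arms of an experiment (open circles 4T1 alone, filled circles co-cultures). In each pair Mvd, Pmvk, Pkm, Gapdh and Krt14 are lower in co-culture and Dmxl1, Ppp3ca, Kdm6a, Cd47 and Txnip are higher, and for Txnip experiment 4 stands far above the rest.

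Beside Mvd and Pmvk, the expressed genes of smallest p with groups apart downward were Nelfe, a pausing factor of RNA polymerase II, the ribosomal genes Rpl31 and Mrpl14, the peroxidase gene Prdx2, Avpi1, Mtch1, and Gm12468 and Gm9755, gene models whose symbols carry no function. Their exon lengths ran from 0.404 kb for Gm12468 to 5.62 kb for Mtch1. Rpl31 had 811.6 to 875.7 per M in 4T1 alone and 804.1, 706.0, 638.2 and 692.9 per M in co-culture, and none of these 8 passed. The limma fit of all 40 libraries with the block called each of the 8 lower, at adjusted p of 0.00289 for Nelfe to 0.0333 for Mtch1. That fit includes the uncoated libraries on which these genes were chosen, so its calls are no separate support. Of the 3 genes that passed downward, the 2 beside Mvd were also such models: Gm5263, at 22.1 to 34.2 per M in 4T1 alone and 25.4, 20.4, 18.9 and 21.4 per M in co-culture, and Gm8959, at 6.50 to 9.42 per M and then 7.35, 4.27, 5.17 and 5.93 per M. If such models are copies of expressed genes, their counts depend on how the authors' counting shared reads, which is not given in the sources used here.

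Direction moved with transcript length. Summed exon length, from the GENCODE vM21 annotation, was found for 99.8% of the 9545 expressed genes and had a median of 4.37 kb. It was 9.66 kb for the 150 genes apart upward and 2.55 kb for the 182 apart downward. Among the 1770 genes of 8 kb or more, 4.97% were apart upward and 0.226% downward. Among the 1008 genes under 1 kb the shares were 0.198% and 3.37%. The median log2 difference ran from -0.093 under 1 kb to 0.093 at 8 kb or more in experiment 2, from -0.183 to 0.099 in experiment 4 and from -0.121 to 0.105 in experiment 5. In experiment 1 it was -0.007 and -0.014, with no such trend. Exon lengths were 9.98 kb for Ppp3ca, 21.9 kb for Dmxl1 and 8.38 kb for Kdm6a, against 1.86 kb for Mvd, 1.71 kb for Pmvk and 0.949 kb for Mrpl14.

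With the length trend of each library taken out, 133 expressed genes were apart upward, 80 of them from the 150, and 130 downward, 65 of them from the 182. Ppp3ca, Dmxl1, Kdm6a, Mvd, Pkm, Gapdh and Eno1 stayed apart, and Mvk, Pmvk, Tpi1, Pgk1, Cdk4 and Mcm7 did not. The log2 difference of Mvd was then -0.32. With scaling to the epithelial markers instead, the groups of all these named genes overlapped. The part of RNA integrity or library preparation in the length trend was not tested.

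**Figure D5:**
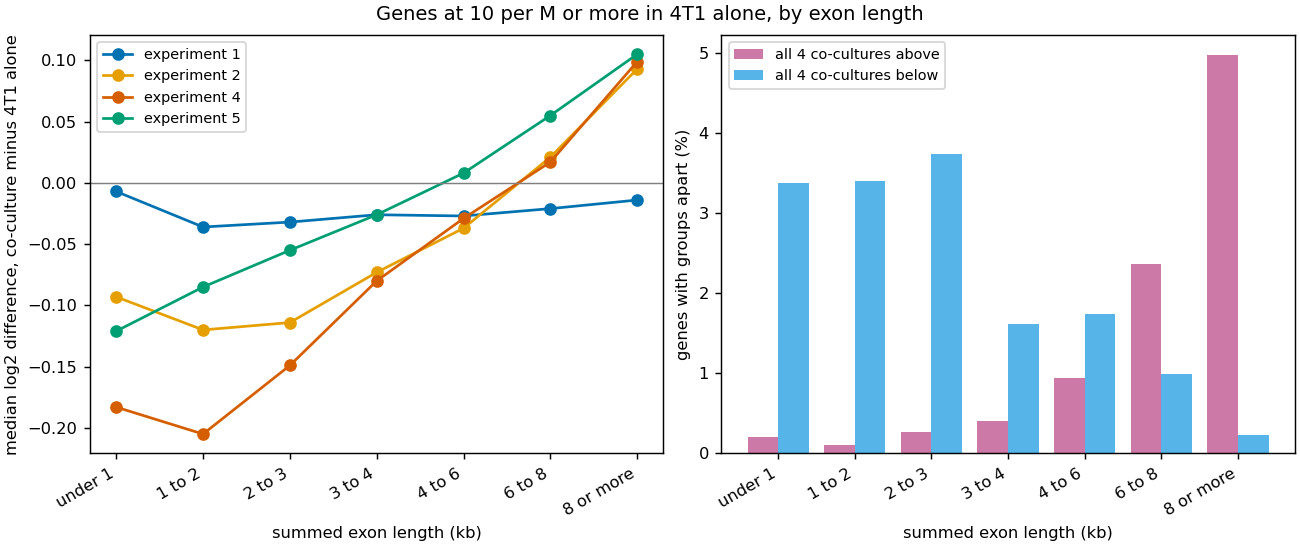
Genes at 10 per M or more in 4T1 alone, by summed exon length in kb. Left, the median log2 difference of co-culture minus 4T1 alone in each experiment; it runs upward with length in experiments 2, 4 and 5 and stays between -0.036 and -0.007 in experiment 1. Right, the share of genes (%) with all 4 co-cultures above (pink) or below (blue) all 5 libraries of 4T1 alone.

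Whether the response to T cells was particular to uncoated plastic was asked by subtracting, within experiments 1, 2, 4 and 5, the mean response on the coated wells (collagen I, collagen IV, fibronectin or vitronectin, with fibronectin alone in experiment 1) from that on uncoated plastic. No gene differed at an adjusted p of 0.05 (0 of 14701, 0%, by limma), and 1465 (9.97%) had an unadjusted p under 0.05. T cell receptor genes had a median difference of -0.30, a median response of 5.25 on uncoated plastic and of 5.43 on coated wells. Cd3e had a difference of -0.06 ± 0.29 and Laptm5 of -0.51 ± 0.20, the last lower on uncoated plastic in 4 of 4 experiments (limma adjusted p = 0.474). Interferon gamma response genes had a median difference of -0.14, with Gbp4 at 0.12 ± 0.17 and Cxcl9 at 0.04 ± 0.38. For MHC class I genes 11 of 21 had an unadjusted p under 0.05, with a median difference of -0.13, a median response of 0.09 on uncoated plastic and 0.23 on coated wells.

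Among single genes, the smallest p belonged to Gm12468, whose response was -0.52 on uncoated plastic and -0.05 on coated wells (difference -0.46 ± 0.06, lower in 4 of 4 experiments; limma adjusted p = 0.145). Several other gene models and pseudogenes followed it. Knl1, a kinetochore scaffold, had a response of 0.37 on uncoated plastic and 0.01 on coated wells (difference 0.36 ± 0.06; adjusted p = 0.184), and Tlr4, a receptor of innate immunity, had 0.47 and 0.03 (0.44 ± 0.09; adjusted p = 0.248). Krt14 had -0.40 and -0.37, a difference of -0.03 ± 0.06. Both responses come from separate wells of the same 4 experiments.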

How the data were processed

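RNA was measured by single-end sequencing of 75 bases from TruSeq RNA libraries, per the labels' protocols; the kit is known to select poly(A) RNA and not to keep strand, so a gene and its antisense partner cannot be told apart. The submitters' processing notes name STAR 2.6, featureCounts, edgeR 3.31.7 and mm10; the annotation is not given in the sources used here. The deposited table holds a normalised signal per gene, in which the authors' counts are expressed per M of each library's scaled size. All values gave whole reads within 0.01 (100%), and edgeR's quasi-likelihood test on those reads called 267 genes.

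Genes reaching 1 per M in 3 of the 40 libraries were tested (14702) with limma 3.58.1 in R 4.3.3 on log2(value + 0.1), so differences of low genes are understated. Adjusted p-values are Benjamini-Hochberg, with a threshold of 0.05. edgeR 4.0.16 and DESeq2 1.42.0 were run on the recovered reads. The experiment number is the labels' replicate number and was used as a block. Deviations of same-numbered libraries correlated at 0.137 to 0.334 in 4 pairs, against a median of -0.046 (-0.37 to 0.244) in the 16 other pairs. No library was a copy of another (chi-square per degree of freedom 9.76 to 74.7).

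The gene lists were chosen with earlier results of these data known. The text names list members and, because no gene passed limma, the genes of smallest p whose groups did not overlap, over all genes and among those at 10 per M or more in 4T1 alone. Of 2 lines for Cd3d 1 was kept, 19 symbols turned into dates were not named, and 1 gene with a non-numeric cell was left out of fits over 40 libraries. Promoters are RefSeq (GRCm38.p6) and exon lengths GENCODE vM21. The fits were tested on simulated data. Without molecular identifiers, floors cover counting error only. Results on some genes of these lists are not reported here.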

Additional observations from a re-analysis of the deposited data

Results flagged for a closer look

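In 255 groups of 4 or 5 libraries, 26 values (10.2%) stood apart from the rest of their group by the size of their gap on the log2 scale. Chance sets apart about 1 in 20 groups, and the groups are not independent. In 4T1 alone, 9 T cell or leukocyte genes had 1 library above the others at a level of 1 read to a few reads: Cd3d 0.0395 per M in experiment 4, Cd8b1 0.0259, Grap2 0.0259, Icos 0.0777, Dock2 0.104 and Gimap6 0.0777 in experiment 2, Rac2 0.0332 in experiment 3, and Btla 0.048 and Ighm 0.048 in experiment 5. For Cd3d, Cd8b1, Grap2, Rac2, Btla and Ighm that level is a single read, and the other libraries of 4T1 alone held none.

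The co-culture of experiment 4 was set apart upward for Gbp4 (37.1 per M), Gbp6 (7.49), Cxcl9 (1.97), Cd274 (7.49), Tap2 (40.8), B2m (456.8), Ubn2 (60.7), Mga (95.0) and Kdm6a (36.6). It was set apart downward for Pgk1 (966.3 per M), and 4T1 alone of experiment 3 was high for Pgk1 (1478 per M).

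Among list means of log2(value + 0.1), the co-culture of experiment 4 was high for the interferon gamma response (4.13), checkpoint and costimulatory ligands (4.72) and red cell and platelet markers (2.25), and low for the cell cycle (7.11). The co-culture of experiment 2 was high for matrix remodelling (5.80), and 4T1 alone of experiment 2 for checkpoint receptors and regulatory T cells (0.21).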

How the results depend on the processing

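With the replicate block limma called 0 genes on the 9 libraries at pseudocounts of 0.1, 0.5 and 1, under both other filters, with quantile normalisation and with the length trend out. It called 32 with no replicate block, 59 with scaling to the epithelial markers, 955 over all 40 libraries with the replicate block and 72 over them without it. On recovered reads edgeR called 267 and DESeq2 529 with the block, and edgeR 0 without it. Leaving out an experiment gave 0 to 78 calls by limma and 110, 266, 204 and 233 by edgeR (experiments 1, 2, 4 and 5). The cause of these differences was not tested.

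Groups apart upward numbered 598, or 377 with quantile normalisation and 642 to 1250 without an experiment. Groups apart downward numbered 220, or 417 with quantile normalisation, 3 with scaling to the epithelial markers, 141 with the length trend out and 292 to 1262 without an experiment. Of genes under 0.1 per M in 4T1 alone, which the filter keeps for their other libraries, 288 were apart upward and 128 with quantile normalisation. Of genes at 10 per M or more, 34 were apart upward and 0 downward with scaling to the epithelial markers, and 169 to 645 upward and 231 to 1073 downward without an experiment; fewer libraries make separation easier.

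Among the named genes, Cxcl10 and Irf1 changed sign: Cxcl10 was -0.08 with quantile normalisation and -0.02 to 0.23 without an experiment (-0.02 without experiment 1). Irf1 was -0.00 with no replicate block and -0.03 to 0.04 without an experiment (-0.03 without experiment 4, -0.02 without experiment 1). No gene passed for uncoated against coated plastic under any alternative run. With 4 experiments and 3 residual degrees of freedom, small differences were not detectable, and genes near 3 reads are limited by depth.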
